A study of Mus musculus with 26 samples.

Results

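The 8 genes described here encode parts of the phagocyte NADPH oxidase (Cybb, Cyba, Ncf1 and Ncf4) and receptors for the constant part of immunoglobulins with their shared signalling chain (Fcgr1, Fcgr2b, Fcgr3 and Fcer1g). They were taken as named, and every probe set annotated to exactly 1 of their symbols was used, whatever its level. This gave 17 probe sets, out of 34945 that carry exactly 1 gene symbol, and 8 genes out of 18193. Cybb and Ncf1 had 3 probe sets each, Fcgr2b had 5, Fcgr1 had 2, and the other 4 genes had 1 each. For genes with several probe sets, the one with the highest mean over all arrays is given first and is called the leading probe set. Each gene was followed through 8 populations of blood cell progenitors of C57/Bl6 mice.

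The phagocyte oxidase moves electrons from NADPH across a membrane onto oxygen and so makes superoxide, which neutrophils and macrophages use against microbes. Its membrane part is a pair of proteins, the catalytic subunit from Cybb (gp91phox) and its partner from Cyba (p22phox), and cytosolic subunits such as those of Ncf1 (p47phox) and Ncf4 (p40phox) join it when the cell is activated. Receptors for IgG bind antibody on coated particles. The products of Fcgr1 and Fcgr3 activate the cell through the ITAM of the common gamma chain, the product of Fcer1g, whereas that of Fcgr2b carries an inhibitory ITIM. Engaged Fc receptors are among the signals that start the oxidase in phagocytes.

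The study compared messenger RNA on 26 Affymetrix expression arrays. MPPFL- had 5 arrays and every other population (MPPFL+, CMP, GMP, CLP and the thymic DN1, DN2 and DN3) had 3. By the labels, the first 5 of these 8 populations came from bone marrow and the DN populations are thymocytes. All arrays carry the same strain, the sex male and an age of 2 months, and no treatment or altered allele is given. MPPFL- and MPPFL+ are multipotent progenitors, CMP and GMP the common myeloid and granulocyte-macrophage progenitors, CLP common lymphoid progenitors. The DN populations are consecutive stages of early T cell development, before CD4 and CD8 appear. Another label reads ALP for the CLP arrays. Gates, pooling of animals and numbers of cells are not given in the sources used here, and nothing says that replicates came from separate animals, so p-values measure only the spread between these arrays.

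Levels are log2 signals as deposited. The lowest value of the table, 2.17, recurs on every array, is held by 30.2% to 37.1% of probe sets per array, and is called the floor. Levels of different probe sets cannot be set against each other, and the number of arrays limits the precision. Differences are given on the log2 scale, first population minus second, with the standard error (SE) and an adjusted p, which is limma's moderated test with Benjamini-Hochberg adjustment over all 34945 probe sets. An adjusted p under 0.05 counts as passed. A fold is written as "at least" where the lower of the compared populations had no array more than 1 log2 unit above the floor. The spike-in control probe sets split the arrays into 6 groups: MPPFL-, MPPFL+ and CLP shared 1, DN1 and DN2 shared 1, and the GMP arrays formed 1 of their own. CMP replicate 1 stood alone, CMP replicates 2 and 3 grouped with DN3 replicate 3, and DN3 replicates 1 and 2 formed the last group. The populations compared in CMP against MPPFL+, GMP against CMP, DN1 against CLP, DN3 against DN2 and CLP against GMP share no group. In those comparisons spike-in group and population cannot be told apart. Against the label male, 4 arrays carried Xist signal above 5, namely DN1 replicates 1 and 3 and DN2 replicates 2 and 3. Under that cut, Xist read 4.45, 4.39, 3.12 and 3.74 on MPPFL- replicates 1, 2, 4 and 5, and at most 2.21 on the remaining arrays. On DN1 replicate 3 and DN2 replicate 2 the Y-linked Eif2s3y was also near or at the floor, and the other arrays of the series had it at 11.28 or more. Among markers of other cells, mature neutrophil genes averaged 6.24 on MPPFL+ replicate 3 against 2.94 and 2.95 on the other MPPFL+ arrays, and T cell genes averaged 4.58 on DN1 replicate 1 against 2.77 and 2.42. The log2 difference between the 3' and 5' Gapdh control probe sets also varied with population. It was 1.85 to 2.54 in CMP and GMP and 2.80 to 3.88 in MPPFL-, MPPFL+ and CLP. On DN1 replicate 3 it was 1.68, against 3.82 and 4.63 on the other DN1 arrays.

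**Figure D1:**
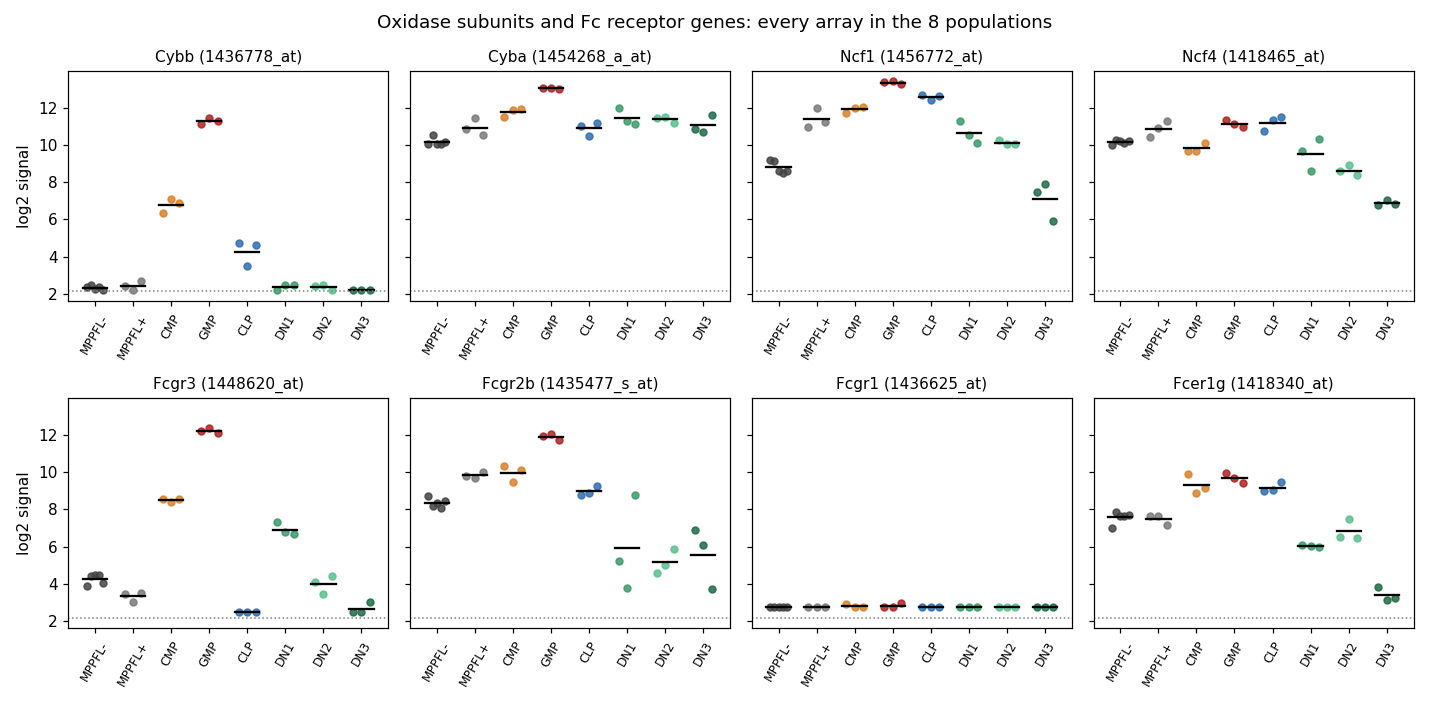
Log2 signal of the leading probe set of each of the 8 genes (vertical axes) on every array in the 8 populations (horizontal axes). Points are arrays, bars are population means and the dotted line is the floor at 2.17. Cybb and Fcgr3 lie highest in GMP and low in most other populations, Cyba, Ncf1 and Ncf4 are measured everywhere, and Fcgr1 stays flat near 2.77.

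Counted by probe set, GMP against CMP held the most member calls of the 8 comparisons, and counted by gene DN1 against CLP did, with 6 of 8 genes. There 12 of the 17 member probe sets passed as higher in GMP and 0 as lower, where 12% of all 34945 probe sets passed as higher, 6.71% as lower and 18.8% in either direction. By leading probe set these were 5 of 8 genes, with a median difference of 1.37 against 0 over all genes. CMP against MPPFL+ had 5 higher and 1 lower of 17 (5.51% and 13.4% of all, 18.9% in either direction), and MPPFL+ against MPPFL- had 5 higher and 1 lower (9.09% and 6.63% of all, 15.7% in either). In the first of these the count fell from 6 to 3 without MPPFL+ replicate 3 or CMP replicate 2, and in the second from 6 to 3 without MPPFL+ replicate 1 or 2. As deposited, 29.1% of all calls between CMP and MPPFL+ were higher, and after quantile normalisation 44.1% were. The median over probe sets that are not dim moved from -0.23 to -0.01.

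Toward the lymphoid side the members split. CLP against MPPFL+ had 3 higher and 1 lower of 17 (2.1% and 2.76% of all, 4.85% in either direction), the higher ones being the leading probe set of Cybb, 1425609_at of Ncf1 and Fcer1g, and the lower one Fcgr3. That count fell from 4 to 2 without MPPFL+ replicate 1 or 3 or CLP replicate 1 or 3. CLP against GMP had 0 higher and 11 lower (13.2% and 11% of all, 24.2% in either), from Cybb, Cyba, Ncf1, Fcgr2b and Fcgr3, while Ncf4, Fcer1g and the leading probe set of Ncf1 did not pass. DN1 against CLP had 1 higher and 10 lower (8.94% and 15.7% of all, 24.6% in either), with Cyba and Fcgr1 the 2 genes that did not pass by leading probe set. DN2 against DN1 had 0 higher and 1 lower, Fcgr3 (3.19% and 3.06% of all, 6.25% in either). Without DN1 replicate 2 it had 2 calls, with Ncf4 added (-1.39, adjusted p = 0.00162), and without DN2 replicate 1 it also had 2. DN3 against DN2 had 0 higher and 5 lower (14.5% and 12.4% of all, 26.8% in either), from Ncf1, Ncf4, Fcgr3 and Fcer1g. Leaving out the arrays that go against the label male leaves 1 DN1 array (replicate 2) and 1 DN2 array (replicate 1), assumed to vary like the other populations, so these values cannot show the spread of DN1 or DN2. On that footing DN1 against CLP had 9 calls, DN2 against DN1, a single array against another, had 1, and DN3 against DN2 had 5.

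**Figure D2:**
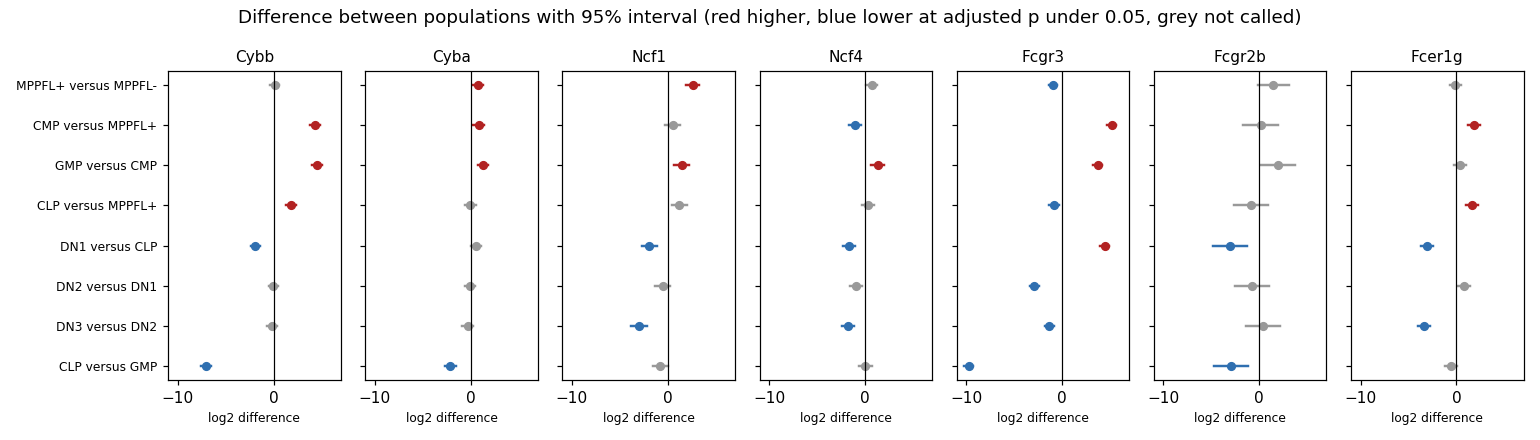
Log2 difference, first population minus second, with its 95% interval (horizontal bars) for the leading probe sets of the 7 genes with a measurable level, in the 8 comparisons. Red and blue points passed as higher and lower, and grey ones did not pass. Between CMP and GMP 5 genes are red and none blue, and in DN1 against CLP Fcgr3 alone is red while 5 genes are blue.

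Cybb, the catalytic subunit, was near the floor in multipotent progenitors, appeared in CMP and was highest in GMP. The leading probe set read 2.38, 2.47, 2.25, 2.36 and 2.20 on the MPPFL- arrays and 2.45, 2.20 and 2.69 on the MPPFL+ arrays. It read 6.32, 7.10 and 6.86 in CMP and 11.13, 11.46 and 11.30 in GMP. No CMP array overlapped with a multipotent array, and no GMP array with a CMP array. From MPPFL+ to CMP the level rose by 4.32 (SE 0.24, adjusted p = 2.52e-10), at least 19.9-fold, and from CMP to GMP by a further 4.53 (SE 0.24, adjusted p = 4.43e-11), 23.2-fold. In bulk arrays such as these, fewer cells that express a gene and less RNA per cell cannot be told apart. On the lymphoid side CLP held a low level on all its arrays, at 4.75, 3.48 and 4.60, above every MPPFL+ array. The rise from MPPFL+ to CLP was 1.83 (SE 0.24, adjusted p = 3.49e-05), at least 3.55-fold, but the adjusted p was 0.169 when only the arrays of those populations were fitted. DN1 was back at 2.20, 2.47 and 2.47, a fall by 1.89 from CLP (SE 0.24, adjusted p = 8.05e-06), and the DN2 arrays, at 2.44, 2.47 and 2.20, and the DN3 arrays, all at 2.20, passed in neither later step. The CLP and DN1 values of this probe set all lie under 5, so with values under 5 set to 5 both the rise into CLP and the fall into DN1 become 0. Between the opposed branches, CLP lay below GMP with a difference of -7.02 (SE 0.24, adjusted p = 2.97e-14), 130-fold.

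The other probe sets of Cybb gave the same place for its highest level. Probe set 1422978_at was at the floor on 21 arrays, read 2.92, 2.24 and 2.17 in CMP and 8.66, 9.26 and 8.94 in GMP, at least 91.3-fold higher in GMP (difference 6.51, SE 0.14, adjusted p = 1.24e-17). Probe set 1436779_at read 3.15, 2.67 and 2.19 in CMP and 5.47, 5.13 and 5.01 in GMP (difference 2.53, SE 0.18, adjusted p = 4.63e-09). In CMP against MPPFL+ neither passed (0.27, adjusted p = 0.192, and 0.50, adjusted p = 0.0640), but both did without CMP replicate 3 (0.40, adjusted p = 0.0452, and 0.74, adjusted p = 0.00387), and 1436779_at passed against MPPFL- (0.50, adjusted p = 0.0279). The low level in CLP passed against MPPFL+ on the leading probe set only. Across the 26 arrays the leading probe set correlated with them at r = 0.88 and r = 0.92, a description over arrays that share populations.

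The promoter windows of Cybb, Fcgr3 and Fcgr1 are printed because Cybb and Fcgr3 had the steepest rises toward GMP of the 8 genes while Fcgr1 gave no measurable signal. They come from RefSeq on build GRCm38.p6, hold 280 bases (250 before the annotated start and 30 from it), and are read on the minus strand, on which all 3 genes lie. The array files name no build. Capitals mark the letters GAGGAA, an Ets-type motif of the kind PU.1 (Spi1) binds, searched on both strands and printed here as its reverse complement TTCCTC. The motif was chosen after these windows had been read. The windows lie at chrX:9469295-9469574 (Cybb), chr1:171059374-171059653 (Fcgr3) and chr3:96293940-96294219 (Fcgr1).
Cybb: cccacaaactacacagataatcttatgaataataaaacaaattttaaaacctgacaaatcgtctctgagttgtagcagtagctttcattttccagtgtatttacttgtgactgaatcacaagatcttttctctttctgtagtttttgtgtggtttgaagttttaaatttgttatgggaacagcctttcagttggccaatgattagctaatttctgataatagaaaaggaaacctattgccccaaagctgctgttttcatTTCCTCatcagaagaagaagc
Fcgr3: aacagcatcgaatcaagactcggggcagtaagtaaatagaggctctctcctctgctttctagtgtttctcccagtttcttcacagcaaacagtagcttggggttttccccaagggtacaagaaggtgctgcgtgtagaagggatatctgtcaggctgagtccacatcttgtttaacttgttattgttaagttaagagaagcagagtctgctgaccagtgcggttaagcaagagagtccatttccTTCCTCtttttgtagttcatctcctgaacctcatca
Fcgr1: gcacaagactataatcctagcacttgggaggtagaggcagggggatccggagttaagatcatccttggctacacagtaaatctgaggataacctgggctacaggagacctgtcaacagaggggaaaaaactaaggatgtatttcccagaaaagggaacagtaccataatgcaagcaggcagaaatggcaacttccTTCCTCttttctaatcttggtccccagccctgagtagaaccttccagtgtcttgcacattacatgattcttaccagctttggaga

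The motif begins at base 10 of the annotated Cybb transcript, 6 bases before the Fcgr3 start and 55 bases before the Fcgr1 start. For Fcgr3 the table lists a second start, from which the same match lies 15 bases away. Fcgr3 and Fcgr1 share a run of 14 bases around it, ttccTTCCTCtttt. Of the 8 genes, 7 are in the promoter table and Ncf4 is not. The motif was found in 3 of the 7, and in 8536 of the 32851 windows of the same length in the table. CCAAT, searched on both strands, was in the Cybb window alone among the 7, 56 bases before the start, and in 36.1% of all windows. A match of letters is a description and not a bound site. Both Fcgr3, measured in GMP, and Fcgr1, without a measurable signal on these arrays, have it.

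Cyba, the partner that stabilises the catalytic subunit in the membrane, was measured well above the floor in all 8 populations, and GMP was again highest. It read 10.04, 10.51, 10.07, 10.05 and 10.13 in MPPFL-, 10.84, 11.43 and 10.52 in MPPFL+, 11.52, 11.85 and 11.93 in CMP and 13.06, 13.04 and 12.99 in GMP. These 4 populations did not overlap, with each step lying above the one before. From CMP to GMP Cyba rose by 1.26 (SE 0.26, adjusted p = 0.00177), 2.40-fold. The smaller steps from MPPFL- to MPPFL+, 0.77 (SE 0.23, adjusted p = 0.0296), and from MPPFL+ to CMP, 0.83 (SE 0.26, adjusted p = 0.0307), passed narrowly. The first lost its call without MPPFL+ replicate 2 (0.52, adjusted p = 0.252), without MPPFL+ replicate 1 or without any 1 of MPPFL- replicates 1, 3, 4 and 5, and the second without MPPFL+ replicate 3 (0.63, adjusted p = 0.153), MPPFL+ replicate 1 or CMP replicate 2 or 3. In CLP Cyba read 11.00, 10.49 and 11.20, below all GMP arrays (difference -2.13, SE 0.26, adjusted p = 3.73e-06). Through the thymic stages it stayed between 10.70 and 11.98, and none of the steps DN1 versus CLP, DN2 versus DN1 and DN3 versus DN2 passed. The interval from DN2 to DN3 was -0.87 to 0.23. Cybb, by contrast, was near the floor in those same arrays.

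On the leading probe set of Ncf1, the organiser subunit that carries the cytosolic complex to the membrane, the firmest rise came already in MPPFL+. CLP arrays lay between those of CMP and GMP on it, whereas on 1451767_at and 1425609_at they overlapped with CMP. The leading probe set read 9.18, 9.13, 8.59, 8.48 and 8.63 in MPPFL- and 10.97, 11.97 and 11.22 in MPPFL+, without overlap. The rise was 2.58 (SE 0.34, adjusted p = 1.90e-05), 5.99-fold, and it kept its call under all 19 alternatives tried. CMP followed at 11.71, 11.98 and 12.04, GMP at 13.37, 13.42 and 13.25, and CLP at 12.68, 12.39 and 12.64. GMP exceeded CMP by 1.44 (SE 0.37, adjusted p = 0.00995), a call that was lost with the spike-in group as a random block (1.21, adjusted p = 0.179). CLP lay above every MPPFL+ array, but the difference of 1.18 (SE 0.37) did not pass (adjusted p = 0.0908). CLP also lay below every GMP array without passing on this probe set (-0.78, SE 0.37, adjusted p = 0.161), whereas 1451767_at gave -1.58 (adjusted p = 0.00712) and 1425609_at gave -2.34 (adjusted p = 2.58e-05).

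In the thymus Ncf1 fell in steps. DN1 read 11.26, 10.52 and 10.13, DN2 10.24, 10.04 and 10.03, and DN3 7.46, 7.88 and 5.94. The fall from CLP to DN1 was by 1.93 (SE 0.37, adjusted p = 6.36e-04) and that from DN2 to DN3 by 3.01 (SE 0.37, adjusted p = 4.32e-06), 8.05-fold, both without overlap of arrays. DN1 and DN2 overlapped, and the step between them did not pass (-0.53, adjusted p = 0.553). Probe set 1451767_at showed the same rise into MPPFL+ (3.12, adjusted p = 6.21e-06) and the same falls into DN1 (by 1.90) and DN3 (by 2.29, adjusted p = 2.55e-04). With DN1 replicate 2 as the only DN1 array left, which leaves out the arrays that go against the label male, the DN1 difference on it was -1.69 (adjusted p = 0.0563). Probe set 1425609_at was dim, between 2.17 and 5.28 on every array outside GMP, and read 6.64, 7.14 and 6.83 there. On it the rise into MPPFL+ did not pass (0.56, adjusted p = 0.289). Its firmest rise was from CMP to GMP (2.72, adjusted p = 8.40e-06).

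Ncf4, a cytosolic subunit that binds a membrane lipid of phagosomes, was the only oxidase gene of the 4 whose highest mean was not in GMP. It read 11.32, 11.10 and 10.99 in GMP and 10.75, 11.32 and 11.48 in CLP, with overlapping arrays and a difference of 0.05 (interval -0.60 to 0.69, adjusted p = 1). CMP was lower than GMP, at 9.67, 9.68 and 10.12, and the rise to GMP was 1.31 (SE 0.31, adjusted p = 0.00472), again lost with the spike-in group as a block (adjusted p = 0.0958). MPPFL- read 10.02, 10.27, 10.20, 10.11 and 10.20 and MPPFL+ 10.41, 10.89 and 11.27, which did not pass (0.70, adjusted p = 0.105). The fall from MPPFL+ to CMP, by 1.03 (SE 0.31, adjusted p = 0.0224), was the only lower call of a leading probe set in that step. It did not hold without MPPFL+ replicate 3 (-0.83, adjusted p = 0.109), without MPPFL+ replicate 2, without CMP replicate 1 or 2, or after quantile normalisation (-0.81, adjusted p = 0.0738). Thymic levels dropped from DN1 (9.69, 8.58 and 10.32) through DN2 (8.59, 8.90 and 8.37) to DN3 (6.75, 7.02 and 6.83). Ncf4 fell by 1.65 from CLP to DN1 (SE 0.31, adjusted p = 4.52e-04, or 0.139 when only those populations were fitted) and fell by 1.75 from DN2 to DN3 (SE 0.31, adjusted p = 2.08e-04), 3.36-fold. All DN3 arrays lay below every other array of the series for Ncf4.

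Fcgr3, the activating IgG receptor, spanned the widest range of the leading probe sets and passed in all 8 comparisons. It read 3.90, 4.41, 4.47, 4.49 and 4.07 in MPPFL-, 3.48, 3.01 and 3.51 in MPPFL+, 8.55, 8.38 and 8.58 in CMP and 12.21, 12.35 and 12.13 in GMP. The rises were 5.17 from MPPFL+ to CMP (SE 0.23, adjusted p = 1.09e-11), 35.9-fold, and 3.73 from CMP to GMP (SE 0.23, adjusted p = 3.95e-10), 13.2-fold. CMP and GMP are customarily separated with an antibody that binds the products of Fcgr2b and Fcgr3. The gates are not given here, so whether these genes served to define the populations cannot be told, and their difference between CMP and GMP is given as a description of the sorted cells. CLP was near the floor, at 2.47, 2.50 and 2.50, and GMP was at least 853-fold higher (difference of CLP from GMP -9.74, SE 0.23, adjusted p = 5.77e-17). The small falls from MPPFL- to MPPFL+, by 0.93 (adjusted p = 0.00286), and from MPPFL+ to CLP, by 0.84 (adjusted p = 0.0346), lie at levels under 5 and vanish when values under 5 are set to 5. The second lost its call without MPPFL+ replicate 1 or 3 or without any 1 CLP array, with adjusted p up to 0.138.

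DN1 stood apart from the other lymphoid populations in Fcgr3. Its arrays read 7.30, 6.76 and 6.67, above every CLP array and every multipotent array. The difference from CLP was 4.42 (SE 0.23, adjusted p = 7.73e-11), at least 21.4-fold. The only DN1 array that does not go against the label male, replicate 2, lay 4.27 above CLP, a value from 1 array. DN2 read 4.09, 3.44 and 4.44, a fall by 2.92 from DN1 (SE 0.23, adjusted p = 5.16e-08), 7.57-fold, with an adjusted p of 0.0603 when the arrays of those populations, which share a spike-in group, were fitted alone. DN3 read 2.50, 2.50 and 3.01, a further fall by 1.32 (SE 0.23, adjusted p = 1.59e-04) at levels under 5, which was 0 with values under 5 set to 5 and had an adjusted p of 0.0684 when only those populations were fitted. Fcgr3 was thus the only one of the 8 genes that passed as higher in DN1 than in CLP, while 5 passed as lower. On the DN1 arrays the 7 natural killer cell markers measured averaged 5.10 to 6.07 against 4.68 to 4.86 in CLP. Of these, 3 passed as higher (Gzma by 2.83, Eomes by 2.38 and Nkg7 by 1.04), and the defining receptor Ncr1 was at the floor on all arrays. The 11 macrophage and monocyte markers averaged 4.10 to 4.20 in DN1 against 4.48 to 4.61 in CLP, with 1 higher and 2 lower. Per array, 3 to 4 of the 11 were above 5 in DN1 and 3 in CLP, while C1qa, C1qc and Marco were at the floor on every DN1 array. Mature neutrophil markers averaged 2.57 to 2.63, with 0 of 9 above 5. The part of natural killer cell or macrophage RNA in the Fcgr3 level of DN1 was not tested.

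Fcgr2b, the inhibitory IgG receptor, was expressed in every bone marrow population and was lower on most thymic arrays, with more scatter. Its leading probe set read 8.70, 8.20, 8.33, 8.08 and 8.47 in MPPFL-, 9.79, 9.68 and 10.02 in MPPFL+ and 10.31, 9.48 and 10.09 in CMP. GMP was highest at 11.92, 12.05 and 11.74, and CLP read 8.80, 8.91 and 9.26. The thymic arrays scattered, with DN1 at 5.24, 3.79 and 8.78, DN2 at 4.59, 5.00 and 5.88, and DN3 at 6.89, 6.09 and 3.75, so the standard error of this probe set was wide (0.85 between populations of 3 arrays). On it the higher level in GMP than in CMP did not pass (1.94, adjusted p = 0.137) although the arrays did not overlap, and it passed when only those populations were fitted (adjusted p = 0.0259). The other 3 probe sets above the floor did pass in that step, 1435476_a_at by 2.25 (SE 0.36, adjusted p = 1.74e-04), 1455332_x_at by 1.87 (SE 0.40, adjusted p = 0.00244) and 1451941_a_at by 3.48 (SE 0.62, adjusted p = 4.46e-04). The call of 1455332_x_at was lost with the spike-in group as a random block (adjusted p = 0.0654). Probe set 1447622_at was at the floor on all 26 arrays. CLP lay below GMP on all 4 probe sets above the floor, from -2.60 (1435476_a_at, adjusted p = 1.81e-05) to -3.51 (1451941_a_at, adjusted p = 2.30e-04), and with the same block the leading one lost its call (adjusted p = 0.208), as it did with the Gapdh 3' to 5' difference as a covariate (-1.61, adjusted p = 0.240).

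The fall of Fcgr2b from CLP to DN1 passed on all 4 of these probe sets, by 3.05 on the leading one (SE 0.85, adjusted p = 0.0116) and by 2.23 on 1435476_a_at (SE 0.36, adjusted p = 1.26e-04). DN1 replicate 3, at 8.78 on the leading probe set, lay just under the CLP arrays. When only those populations were fitted all 4 lost the call, with adjusted p from 0.0673 (1435476_a_at) to 0.340 (1451941_a_at), and with the spike-in group as a random block the leading one (adjusted p = 0.180), 1455332_x_at (0.0974) and 1451941_a_at (0.341) did. The call of 1451941_a_at was also lost without any 1 CLP array or without DN1 replicate 1 or 2. Without DN1 replicate 2 the difference on the leading probe set was -1.98 (adjusted p = 0.0912), and DN1 replicate 2 alone, the array that does not go against the label male, differed from CLP by -5.19. In MPPFL+ against MPPFL-, 1455332_x_at rose by 1.32 (adjusted p = 0.0158) and 1451941_a_at by 1.68 (adjusted p = 0.0457), while the leading probe set, at 1.47, did not pass (adjusted p = 0.256) except when only those populations were fitted (adjusted p = 0.00211) or only the arrays of their spike-in group (adjusted p = 4.59e-04). Both calls were lost without MPPFL+ replicate 1 or 2, and the second also without MPPFL+ replicate 3 or any 1 of MPPFL- replicates 2 to 5. The extracellular parts of the Fcgr2b and Fcgr3 products are nearly identical in the mouse, and the suffixes _s_at and _x_at mark probe sets that the array maker allows to match more than 1 transcript, so part of the Fcgr2b signal could be shared and is uncertain.

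**Figure D3:**
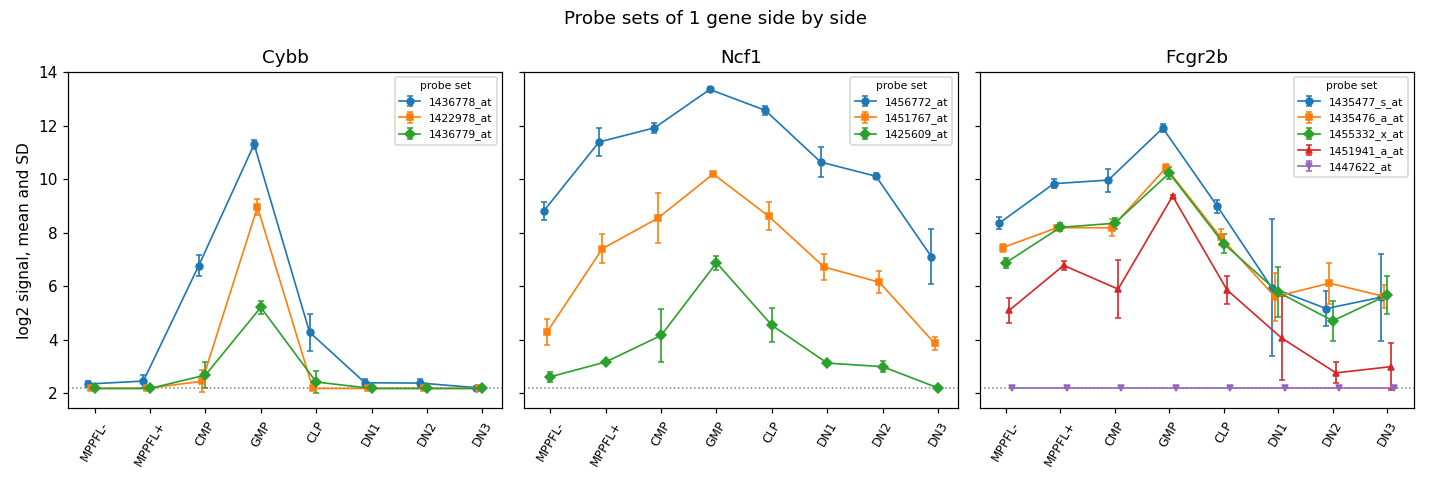
Population mean and SD (error bars) of the log2 signal for each probe set of Cybb, Ncf1 and Fcgr2b across the 8 populations, with the floor as a dotted line. Every probe set above the floor is highest in GMP, the dim sets of Cybb stay within 1 log2 unit of the floor outside GMP, and the SD of the leading Fcgr2b probe set is widest in DN1 and DN3. Heights of different probe sets are not comparable.

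Fcgr1, the high-affinity IgG receptor of monocytes and macrophages, gave no measurable level in any population. Probe set 1417876_at was at the floor on 25 arrays and at 2.21 on MPPFL+ replicate 3. Probe set 1436625_at read 2.77 on nearly all arrays, with 2.94 on CMP replicate 1 and 2.95 on GMP replicate 3 the highest, and neither probe set passed in any comparison. GMP, in which Fcgr3 and Cybb were highest, therefore did not have a detectable Fcgr1 signal on these arrays. Since no array of the series had such a signal, a gene that is not expressed and probe sets that do not respond cannot be told apart.

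Fcer1g, the common gamma chain, was high in CMP, GMP and CLP alike and lowest in DN3. It read 6.99, 7.87, 7.63, 7.65 and 7.72 in MPPFL-, 7.63, 7.64 and 7.17 in MPPFL+, 9.90, 8.86 and 9.14 in CMP and 9.93, 9.68 and 9.43 in GMP. CMP exceeded MPPFL+ by 1.82 (SE 0.29, adjusted p = 1.82e-04), 3.53-fold, with an adjusted p of 0.0731 when only those populations were fitted, and CMP and GMP overlapped (0.38, SE 0.29, adjusted p = 0.460). CLP, at 8.97, 9.02 and 9.46, exceeded MPPFL+ by 1.67 (SE 0.29, adjusted p = 0.00101), 3.18-fold, and overlapped with GMP (-0.53, interval -1.15 to 0.09, adjusted p = 0.243). The gamma chain was thus well above the floor in CLP, where the receptor Fcgr3 was near it. In DN1 it read 6.10, 6.05 and 5.97, in DN2 6.50, 7.47 and 6.47 and in DN3 3.85, 3.13 and 3.27. It fell by 3.11 from CLP to DN1 (SE 0.29, adjusted p = 2.88e-07), 8.63-fold, and by 3.40 from DN2 to DN3 (SE 0.29, adjusted p = 3.86e-08), 10.6-fold. Arrays did not overlap in either step, and DN2 lay above DN1 without passing (0.78, adjusted p = 0.155). DN1 therefore combined a higher Fcgr3 with a lower Fcer1g than CLP. In CMP the 7 mast cell and basophil markers measured, which include the FcεRI subunits Ms4a2 and Fcer1a, averaged 5.43 to 5.84 against 3.32 to 3.39 in MPPFL+, and 3 passed as higher (Ms4a2 by 6.71, Cpa3 by 6.09 and Mcpt8 by 2.73). Their part in the CMP level of Fcer1g was not tested.

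On chromosome 1, Fcgr2b and Fcgr3 lie 83.3 kb apart with Fcgr4 between them, and Fcgr3 and Fcer1g lie 175.0 kb apart with 7 protein-coding genes between (RefSeq, GRCm38.p6). Their patterns differed, as the opposite calls for Fcgr3 and Fcer1g in DN1 against CLP show.

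In the order of population means, by leading probe set, GMP was first for Cybb, Cyba, Ncf1, Fcgr2b, Fcgr3 and Fcer1g, and CLP for Ncf4. GMP passed as higher than all 7 other populations for Cybb, Cyba and Fcgr3, than 6 for Ncf1, and than 5 for Ncf4, Fcgr2b and Fcer1g, and it passed as lower in none of these pairs. For Cybb the order GMP, CMP, CLP and MPPFL+ was separated at each step, and MPPFL+, DN1, DN2, MPPFL- and DN3 below it were not. On 1422978_at and 1436779_at of Cybb only GMP against CMP passed among neighbours. There CLP against CMP did not pass (adjusted p = 0.1944 and 0.3995). For Fcgr3 the order GMP, CMP, DN1 and MPPFL- was separated at each step, MPPFL- and DN2 were not, and CLP came last, not separated from DN3. For Ncf1 no neighbours passed from GMP down to DN2, while DN2 passed against MPPFL- (1.30, adjusted p = 0.00591) and MPPFL- against DN3 (1.71, adjusted p = 4.96e-04). On 1451767_at and 1425609_at of Ncf1, GMP did pass against CLP (adjusted p = 0.00712 and 2.58e-05), and MPPFL- against DN3 did not. For Ncf4 only DN2 and DN3 at the low end passed, and for Cyba GMP against CMP at the high end and CLP against MPPFL- (0.74, adjusted p = 0.0266) at the low end. For Fcer1g the steps from CLP to MPPFL- (1.58, adjusted p = 1.39e-04) and from DN1 to DN3 (2.62, adjusted p = 1.06e-06) passed. For Fcgr2b only the step from MPPFL- to DN1 passed (2.42, adjusted p = 0.0267). On 1435476_a_at, 1455332_x_at and 1451941_a_at of Fcgr2b, GMP passed against the next population (adjusted p = 8.52e-05, 0.00244 and 0.00336). The step from MPPFL- to DN1 did not pass on 1451941_a_at (1.03, adjusted p = 0.2225).

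Across the 8 population means, a description without a test, Cybb was closest among the members to Fcgr3 (r = 0.86) and Cyba (r = 0.85), and Ncf1 to Fcer1g (r = 0.88). Ncf4 followed Fcer1g (r = 0.87) and Ncf1 (r = 0.83) and had little relation to Cyba (r = 0.18). Among the oxidase subunits Cybb, Cyba and Ncf1 had their highest mean in GMP, and Ncf1 and Ncf4 were also high in CLP. Ncf1 was related to Cybb as well (r = 0.70), and a grouping of the subunits by pattern was not tested. Among 8863 other genes compared over the same 8 means, those most like Cybb were Spcs3 (r = 0.99), Stox2 and Dok3, and those most like Fcgr3 were Sptlc2 (r = 0.98), Ms4a3 and Hdc. Nearest to Fcgr2b were Mfsd10 (r = 0.995), Cebpd and Cd68, and nearest to Fcer1g Adat2 (r = 0.97), Pgp and Gng12. For Cyba these were Fkbp4 (r = 0.98), Rnf5 and Prpf31, for Ncf1 Tfeb (r = 0.99), Ift22 and Map4, and for Ncf4 Arsb (r = 0.99), Riox2 and Cst3. With 8 means and this many genes, values of r near these arise readily.

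Other genes of the oxidase were taken from a list of 8 partners, of which 7 were measured, each by its leading probe set. Between CMP and GMP 5 of the 7 rose and 0 fell, with a median of 0.80 (13.4% and 7.44% of all 18193 genes, median 0). Hvcn1, the proton channel that balances the charge moved by the oxidase, read 8.17 ± 0.11 in CMP and 11.95 ± 0.16 in GMP (SD, n = 3) and rose by 3.78 (adjusted p = 1.47e-11). Its means elsewhere were between 7.52 and 8.24. Prkcb, a kinase that phosphorylates the Ncf1 product, rose by 4.68 (adjusted p = 7.60e-09), and Prkcd by 1.37 (adjusted p = 9.73e-04). Hvcn1 thus shared the GMP level of Cybb but not its step in CMP. From CLP to DN1, 6 of the 7 fell and 1 rose (18.5% and 7.92% of all genes), with Rac2, the GTPase of the active complex, down by 1.76 (adjusted p = 1.52e-04) and Prkcd by 1.47. From DN2 to DN3, where Ncf1 and Ncf4 fell, 4 of these partners rose and 0 fell (16.3% and 14% of all genes), Prkcb by 5.18 (adjusted p = 1.01e-09) and Rac2 by 1.80 (adjusted p = 9.05e-05). CLP against GMP had 1 higher and 4 lower, CMP against MPPFL+ 0 higher and 2 lower (Prkcb -2.08 and Rap1a -0.63), and the other 3 comparisons 1 higher each. Of 7 genes for other NADPH oxidases and their subunits 3 were measured (Nox4, Duox1 and the subunit gene Noxo1), and none passed in any of the 8 comparisons. Nox4 and Duox1 were at or below 2.30 and 2.26 on every array, and Noxo1 averaged 3.33 to 4.92.

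Among 13 other Fc receptors, 11 were measured. Between CMP and GMP 2 rose and 1 fell, near the shares over all genes (13.4% and 7.44%). Fcgr4, an activating IgG receptor that also pairs with the gamma chain, was at the floor in CMP and averaged 5.55 in GMP (4.92 to 6.18), a difference of 3.38 (adjusted p = 2.56e-11), and elsewhere its highest array was at 2.35. Of the 11, Fcgr4 alone rose by more than 1 log2 unit in this step. Ms4a2, the beta chain of the IgE receptor, averaged 3.33 in MPPFL+, 10.04 in CMP and 8.91 in GMP (6.71 and -1.13, adjusted p = 1.79e-11 and 0.0127). On the lymphoid side Fcrl1 and Fcrla, relatives expressed by B lineage cells, stood in CLP at 6.86 and 4.33. Fcrla rose from MPPFL+ to CLP by 2.15 (adjusted p = 4.70e-08), and Fcrl1 was higher in CLP than in GMP by 4.68 (adjusted p = 8.02e-07). The neonatal receptor Fcgrt fell by 1.84 from MPPFL+ to CMP (adjusted p = 0.0151) and fell by 1.56 from CLP to DN1 (adjusted p = 0.0309). MPPFL+ against MPPFL- had 1 higher and 1 lower of the 11, CMP against MPPFL+ 1 and 3, CLP against MPPFL+ 1 and 0, DN1 against CLP 0 and 2, DN2 against DN1 0 and 1, DN3 against DN2 1 and 0, and CLP against GMP 3 and 3.

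Fc receptor signalling was followed in 14 of 16 listed genes. Tyrobp, the adaptor that resembles the gamma chain and carries its own ITAM, averaged 9.94 in MPPFL-, 10.93 in MPPFL+, 13.06 in CMP, 13.29 in GMP, 12.71 in CLP, 12.37 in DN1, 10.71 in DN2 and 4.47 in DN3. It rose by 2.13 from MPPFL+ to CMP (adjusted p = 1.20e-05) and by 1.78 to CLP (adjusted p = 1.78e-04), as Fcer1g did. From CLP to DN1, where Fcer1g fell, its difference of -0.34 did not pass (adjusted p = 0.487). From DN2 to DN3 Tyrobp fell by 6.24 (adjusted p = 1.29e-12), Btk by 6.28 (adjusted p = 1.10e-13) and Plcg2 by 2.69, while Cd247, the zeta chain of the T cell receptor, rose by 2.65 (adjusted p = 1.02e-05) and Pik3cd by 2.94. In all, 4 rose and 5 fell (16.3% and 14% of all genes). Cd247 rose already from MPPFL+ to CLP, by 3.89 (adjusted p = 3.26e-07), and again from DN1 to DN2, by 2.04 (adjusted p = 9.92e-04). The other counts, higher then lower of 14, were 5 and 0 for MPPFL+ against MPPFL-, 1 and 6 for CMP against MPPFL+, 4 and 1 for GMP against CMP, 3 and 1 for CLP against MPPFL+, 1 and 6 for DN1 against CLP, 1 and 2 for DN2 against DN1, and 5 and 0 for CLP against GMP. Over all genes the shares higher and lower in these steps were 10.6% and 5.21%, 5.07% and 17.7%, 13.4% and 7.44%, 2.4% and 3.78%, 7.92% and 18.5%, 3.7% and 3.9%, and 16.3% and 11.4%, in the same order, and they are the background for the other gene lists here too. Of receptors that use the gamma chain, 5 of 6 were measured and only Clec4e, a receptor for mycobacterial lipid, passed in any comparison. Oscar and Ncr1 were at the floor on all arrays. Clec4e fell by 5.62 from MPPFL+ to CLP (adjusted p = 1.28e-10), rose by 7.05 to DN1 (adjusted p = 3.87e-12) and fell by 7.34 from DN2 to DN3 (adjusted p = 4.51e-13). Its means of 8.83 in MPPFL+, 10.26 in DN1 and 9.55 in DN2 were all high, whereas Fcgr3 was high in DN1 alone of these.

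**Figure D4:**
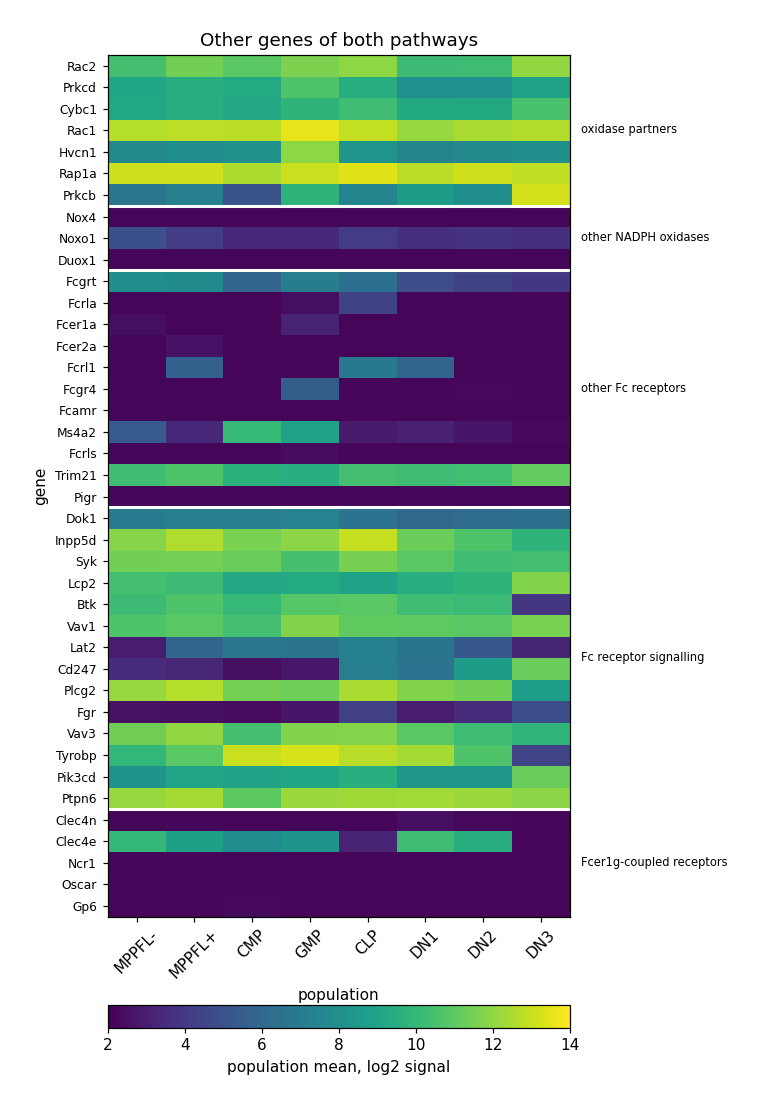
Population mean log2 signal (colour, from 2 to 14) of the other measured genes of both pathways (rows) in the 8 populations (columns), with white lines between gene lists. Hvcn1 and Fcgr4 are brightest in GMP, Tyrobp and Btk darken in DN3, Prkcb and Cd247 brighten there, and Clec4e is dark in CLP and DN3. Colours of different rows are not comparable as expression levels.

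Of 8 measured enzymes that remove superoxide and peroxide, 0 rose and 0 fell between CMP and GMP, with a median of 0.07. Since 13.4% and 7.44% of all genes passed as higher and lower in that step, a count of 0 among 8 is near the background. From DN2 to DN3 4 of them fell and 0 rose, Sod1, the cytosolic superoxide dismutase, by 0.96 (adjusted p = 2.73e-08) and Gpx1, a glutathione peroxidase, by 0.94 (adjusted p = 6.39e-04). The remaining steps held 2 and 0 (higher and lower) for MPPFL+ against MPPFL-, 0 and 3 for CMP and 0 and 2 for CLP against MPPFL+, 1 and 1 for DN1 against CLP and CLP against GMP, and 0 and 0 for DN2 against DN1. Of 6 myeloid transcription factors 5 were measured. Spi1, which encodes PU.1, averaged 7.92 in MPPFL-, between 8.82 and 8.98 in MPPFL+, CMP, GMP and CLP, and 7.20, 5.36 and 2.55 in the successive thymic stages. It rose by 0.99 into MPPFL+ (adjusted p = 0.0300) and did not pass in CMP or CLP against MPPFL+ or in GMP against CMP. It fell by 1.61 into DN1, by 1.85 into DN2 and by 2.81 into DN3 (adjusted p = 2.78e-06). Any link between the Spi1 level and the member genes was not tested. Cebpa, a factor of granulocyte precursors, rose by 2.08 into MPPFL+ and by 2.17 into CMP (adjusted p = 1.58e-05 and 3.05e-05) and was lower in CLP than in GMP (-4.31, adjusted p = 1.27e-09). Irf8 rose from MPPFL+ to CMP by 2.49 and to CLP by 3.67. In counts of 5, higher then lower, the 8 comparisons in the order above gave 4 and 0 (MPPFL+), 2 and 1 (CMP), 1 and 0 (GMP), 1 and 2 (CLP against MPPFL+), 1 and 3 (DN1), 0 and 2 (DN2), 0 and 2 (DN3) and 1 and 2 (CLP against GMP).

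Markers of more mature cells moved with several of these results, and their part in them was not tested. In GMP, where Cybb, Fcgr3 and Hvcn1 were highest, the 9 mature neutrophil markers measured averaged 7.35 to 7.94 per array against 5.46 to 6.75 in CMP, with 2 higher and 0 lower, and the 11 macrophage and monocyte markers averaged 6.27 to 6.33 against 5.32 to 5.56, with 4 higher and 1 lower. On each GMP array 6 of the 11 were above 5, whereas C1qc and Marco were at the floor on all GMP arrays. On MPPFL+ replicate 3, which carried 5 neutrophil markers above 5, Cybb read 2.69 and Fcgr3 3.51, near the other MPPFL+ arrays. In CLP the leading probe set of Cybb was above the floor on all arrays, whereas 1422978_at was at the floor on all of them. Mature neutrophil markers there averaged 2.41 to 2.50 with 0 of 9 above 5. The 7 dendritic cell markers averaged 6.07 to 6.22 against 4.99 to 5.36 in MPPFL+, with 2 higher (Itgax by 4.19 and Siglech by 3.09) and 0 lower. B cell markers averaged 3.55 to 3.85 in CLP, where 1 of 7 (Blk) was higher than in MPPFL+. In DN3, where Ncf1, Ncf4 and Fcer1g were lowest, T cell markers averaged 9.85 to 10.15 against 5.42 to 6.29 in DN2, with 4 of 7 higher and 0 lower.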

How the data were processed

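Messenger RNA of 26 samples was measured on Affymetrix mouse arrays, after Trizol extraction and biotin labelling per the labels' protocols. The authors deposited 1 table of log2 values, with 45101 probe sets. Normalisation steps are not given in the sources used here. Of the probe sets, 34945 carry exactly 1 gene symbol in the platform annotation, 932 several and 9160 none, and 64 are controls. Populations and replicate numbers were taken from the sample titles. A single limma model (lmFit and eBayes, version 3.58.1 under R 4.3.3) covered all arrays. It had a term for population alone, left 18 residual degrees of freedom and used no filter on dim probe sets. Tests were two-sided at an adjusted p under 0.05, over 34945 probe sets within each of 8 comparisons. From the same fit, the 28 pairs of populations were used for neighbours in the order of means. The fit was also run on simulated data of 34945 probe sets, with planted differences between GMP and CMP. It recovered 45% of 100 changes of 1 and 77% of 100 changes of 2 on the log2 scale. Far fewer probe sets changed there than the 6554 called between GMP and CMP in the data, which alters the adjustment of p. Recovery was not given by signal level. These shares therefore do not measure the recovery in the data or for dim member probe sets.

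The members, the 14 gene lists and the tests were chosen with earlier results of these data known. All 8 members are named, and from each list the genes with the 2 largest rises and falls among those that passed in a comparison, plus genes at the floor. Genes listed by likeness have a highest population mean of at least 7.18, the median over genes. Each of 14 lists is described by counts and medians with no set test. Alternatives were quantile normalisation, 1 probe set per gene, values under 5 set to 5, leaving out probe sets with no population mean of 5 or more, another variance model, fits of 2 populations only, replicate number as a block, spike-in group as a random block or alone, the Gapdh 3' to 5' difference as a covariate, adjustment over all 8 comparisons, and leaving out arrays. Promoter sequences and gene neighbours are from RefSeq (GRCm38.p6).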

Additional observations from a re-analysis of the deposited data

Results flagged for a closer look

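Within the 5 MPPFL- arrays, the only population large enough for Dixon's test, 4 of the 17 member probe sets had 1 array far from the others, and chance alone flags about 1 in 20 groups. Cyba read 10.51 on MPPFL- replicate 2, with the nearest other array at 10.13. Fcer1g read 6.99 on replicate 1 against 7.63 for the nearest. Fcgr2b probe set 1451941_a_at read 5.92 on replicate 1 against 4.99. Fcgr1 probe set 1436625_at read 2.767 on replicate 4 against 2.766 on the others, a spread with no bearing on expression.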

How the results depend on the processing

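No member call changed direction under any alternative. The counts of member probe sets called for GMP against CMP, DN3 against DN2 and CLP against GMP stayed within 1.5 times of 12, 5 and 11. This leaves aside the alternative with 1 probe set per gene, which keeps only 8 member probe sets. In the fit as reported 5, 4 and 4 of the 8 leading probe sets passed in these comparisons. Fits of the 2 populations alone gave 1 call for CLP against MPPFL+ (4 as reported), 2 for CMP against MPPFL+ (6), 5 for DN1 against CLP (11) and 0 for DN2 against DN1 (1); the last was also 0 within the spike-in group that DN1 and DN2 share. With spike-in group as a random block CMP against MPPFL+ had 3 and DN1 against CLP 6. Values under 5 set to 5 left 1 for CLP against MPPFL+. DN2 against DN1 had 2 with dim probe sets left out or with adjustment over all 8 comparisons. The cause of these moves was not tested beyond what fewer arrays or a raised floor do by construction. Leaving out 1 array at a time gave 3 to 5 calls for MPPFL+ against MPPFL-, 3 to 8 for CMP against MPPFL+, 12 for GMP against CMP, 2 to 4 for CLP against MPPFL+, 9 to 11 for DN1 against CLP, 1 to 2 for DN2 against DN1, 5 to 6 for DN3 against DN2 and 11 for CLP against GMP. Over all probe sets the count for GMP against CMP ranged from 2392 (2 populations only) to 8913 (without CMP replicate 2) around 6554, and that for DN2 against DN1 from 312 to 3028 around 2185. Deviations of same-numbered arrays from their population means correlated between -0.57 and 0.46, and in no comparison were all 3 pairs above 0.1. With so few arrays per population these values do not settle whether replicate numbers pair the arrays, and the fit used no pairing. With the replicate number as a block MPPFL+ against MPPFL- had 3 calls in place of 6. Probe sets near the floor give bounds only.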
